A study of Mus musculus with 186 samples.

Results

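The cytosolic ribosomal protein (RP) genes are the genes for the proteins that are built, together with the ribosomal RNAs, into the small and the large subunit of the ribosome of the cytosol. Members were chosen by symbol: Rpl or Rps followed by a digit, Rplp followed by a digit, or Rpsa, without the Rps6k kinases, Rps19bp1 and pseudogenes. This gave 88 genes of the 27179 listed, of which 25275 could be matched to a symbol. Of the 88, 31 encode proteins of the small subunit, 43 encode proteins of the large subunit, 3 encode the acidic proteins of the ribosomal stalk and 11 are paralogs or RP-like genes (Rpl10l, Rpl22l1, Rpl32l, Rpl36al, Rpl37rt, Rpl39l, Rpl3l, Rpl7l1, Rps23rg1, Rps27l and Rps27rt).

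The data were RNA profiles of 186 single mammary epithelial cells of adult FVB/NJ females, captured untreated with the Fluidigm C1 system, in which single cells are held in chambers of a chip and their cDNA is made there. Adult basal cells were sorted as Lin–CD29hiCD24+ (96 cells, of which 60 were on PCR plate A and 36 on plate B), and Adult luminal cells as Lin–CD29loCD24+ (90 cells, 24 from plate B, 66 from plate C). Basal cells form the contractile outer layer of the mammary duct, and luminal cells line its lumen. The cells came from 8 mice and no label ties a cell to a mouse, so each population counted as 1 sample, no test between populations or plates was made, and the intervals given cover counting error only.

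RP genes are used by every cell, and a ribosome holds a single copy of nearly every one of the proteins. Many of their mRNAs begin with a C followed by a run of C and T at the cap, the 5′ terminal oligopyrimidine (TOP) motif, through which their translation is controlled together by mTOR signalling. Their mRNAs are short and abundant, and for that reason they have been copied back into the genome many times, as intronless retrocopies and processed pseudogenes that keep much of the parent sequence.

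After the study's thresholds had been applied, 148 cells remained, namely 72 basal cells (50 on plate A and 22 on plate B) and 76 luminal cells (24 from plate B, 52 from plate C). Total reads per passing cell ranged from 303718 to 2191660 in basal and from 326612 to 3784410 in luminal cells. All 8 basal markers (Krt14, Krt5, Acta2 and others) were lower and all 8 luminal markers (Krt8, Krt18, Elf5 and others) were higher in luminal cells, with median log2 ratios of -5.63 and 4.44. Libraries with markers of another cell type were present. Endothelial markers reached 100 CPM (reads per 1000000 reads) or more in sum in 5 basal cells of plate B and 6 luminal cells of plate C. Of these, only basal cell 72 held more endothelial markers (3149 CPM) than markers of its own population (221 CPM). In 3 further cells the markers of the other population were the higher ones (basal cell 13 on plate A, basal cell 90 on plate B and luminal cell 63 on plate C). The summed fibroblast markers (Pdgfra, Col1a1, Col1a2, Col3a1, Dcn and Lum) were above the markers of the cell's own population in 5 cells, namely basal cell 56 on plate A and luminal cells 13 on plate B and 33, 54 and 61 on plate C. No cell had the same counts as another.

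Many of these genes have sequence copies elsewhere in the genome, and Rps27 shows it plainly. Rps27 encodes a zinc-finger protein of the small subunit and Rps27rt is an intronless retrocopy on another chromosome. On GRCm38, the coding sequence of Rps27 lies at chr3:90212728-90213615 on the minus strand in a gene of 4 exons, that of Rps27rt lies in 1 exon at chr9:114982456-114982707 on the minus strand, and that of the paralog Rps27l lies at chr9:66946175-66949354 on the plus strand in 4 exons. Over 252 coding bases Rps27rt differed from Rps27 at 0 positions, and Rps27l differed at 60, an identity of 76.2%. The first 100 coding bases are shown from the GENCODE M21 transcripts to compare them, with bases that differ from Rps27 in capitals:
Rps27: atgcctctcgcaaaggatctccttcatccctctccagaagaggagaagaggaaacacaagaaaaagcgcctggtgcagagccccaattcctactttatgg
Rps27rt: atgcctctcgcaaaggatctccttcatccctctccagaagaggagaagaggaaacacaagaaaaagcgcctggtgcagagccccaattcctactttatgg
Rps27l: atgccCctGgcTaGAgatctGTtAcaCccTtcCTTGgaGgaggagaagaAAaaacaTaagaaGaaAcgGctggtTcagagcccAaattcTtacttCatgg
The stretch holds 25 differences for Rps27l and none for Rps27rt, so the letters of this stretch tell Rps27l from Rps27 but not Rps27rt from Rps27.

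The start sites are shown for the TOP motif, which TOP mRNAs share. Each window covers 10 bases before to 20 bases from the annotated RefSeq start on GRCm38.p6, read along the gene's strand, with the run of C and T that begins with C at the start in capitals:
Rps6: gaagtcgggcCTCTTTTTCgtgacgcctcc
Rps27: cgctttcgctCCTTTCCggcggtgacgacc
Rps27rt: ttatcccttgCTTTCCggcggtgacgacct
Rpl41: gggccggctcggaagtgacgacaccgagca
They lie at chr4:86857348-86857377, chr3:90213629-90213658, chr9:114982720-114982749 and chr10:128549149-128549178, all on the minus strand. The run was 9 bases in Rps6, 7 in Rps27 and 6 in Rps27rt, and Rpl41 had none at the annotated start. Of 80 start windows for 68 members, 15 (18.8%) held a run of at least 5 bases exactly at the annotated start. Of all 32851 windows for 27025 genes, 2.51% did. A run of at least 8 bases beginning with C within 20 bases of the start was found in 43.75% of the members' windows and 14.3% of all windows. In the 300 bases from 250 before to 50 after the start, CTTCCG on either strand was found in 57.5% of the members' windows and in 16.9% of all windows, CTTTCC in 48.8% and 26.6%, AAGATGGC in 10.0% and 2.75%, and TATAAA in 10.0% and 13.6%, with overlaps between motifs not removed. These matches describe the sequence only.

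RP genes took about the same share of reads in both populations, whereas it differed between plates of basal cells. The share is given per cell, as a percentage of reads on genes with a symbol without the mitochondrial genes. Its median was 2.04% in basal cells (0.430 to 3.48%, n = 72) and 1.99% in luminal cells (0.396 to 3.39%, n = 76), a difference of -0.05 points on the percent scale, and the ranges overlapped almost completely. Pooled over cells, RP genes held 1.97% of 86011505 basal reads (exact binomial interval 1.96 to 1.97%) and 2.02% of 116712962 luminal reads (2.02 to 2.02%).

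Basal cells of plate B stood apart from the other groups. Basal cells of plate A ranged from 0.430 to 3.48% around a median of 2.33%, and those of plate B from 0.662 to 2.92% around a median of 1.25%. For luminal cells the medians were 2.02% (0.396 to 3.02%) on plate B and 1.99% on plate C (0.559 to 3.39%). A limit of 1.5% was set with the plate medians known, so the counts below it describe these cells and test nothing. Below it lay 16 of 22 basal cells of plate B (72.7%), against 6 of 50 for plate A (12.0%). For luminal cells the numbers were 4 of 24 (16.7%, plate B) and 8 of 52 (15.4%, plate C). No intervals are given, because cells of 1 plate share a preparation and are not replicates. Limits of 1, 2 and 3% were counted too, and at each the percentage was highest for the basal cells of plate B. The ranges of the 4 groups overlapped, and it was the bulk of the cells that lay lower. On plate B, the only plate with both populations, the luminal median was therefore 0.77 points above the basal median, against 0.05 points below it over all plates.

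Basal cells of plate B differed in other measures too. At 50000 reads per cell, the number of genes other than RP genes found with at least 1 read had a median of 1570 there, against 2910 in basal cells of plate A, 3199 in luminal cells of plate B and 3452 in luminal cells of plate C. The 5 basal cells of plate B with endothelial markers (961 to 3149 CPM in sum) had RP shares from 0.680 to 1.36%, and the 6 luminal cells of plate C (314 to 2312 CPM) had shares from 0.760 to 2.19%. In basal cells of plate A the endothelial sum was at most 14.2 CPM. Without the cells with endothelial markers or with higher markers of the other population, the basal medians were 2.36% on plate A (49 cells) and 1.36% on plate B (16 cells), and basal cells of plate B were again the lower group. Fibroblast markers had a median sum of 95.8 CPM in basal cells of plate A (0 to 28638) and 1.47 CPM in those of plate B (0 to 4465), and all 6 were lower on plate B in summed levels, with a median log2 ratio of -4.03. Without the cells high in fibroblast markers as well, the medians were 2.33% (48 cells) and 1.36% (16 cells). The RP share and the number of other genes at 50000 reads were also compared over the cells of each plate. Their Spearman correlation was -0.002 and -0.486 for basal cells on A and B. For luminal cells on B and C it was 0.121 and 0.125. Among basal cells of plate B, those with more genes detected thus tended to a lower RP share. The part of the lower number of detected genes in the lower RP share was not tested, and mouse, capture and plate cannot be told apart here.

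**Figure D1:**
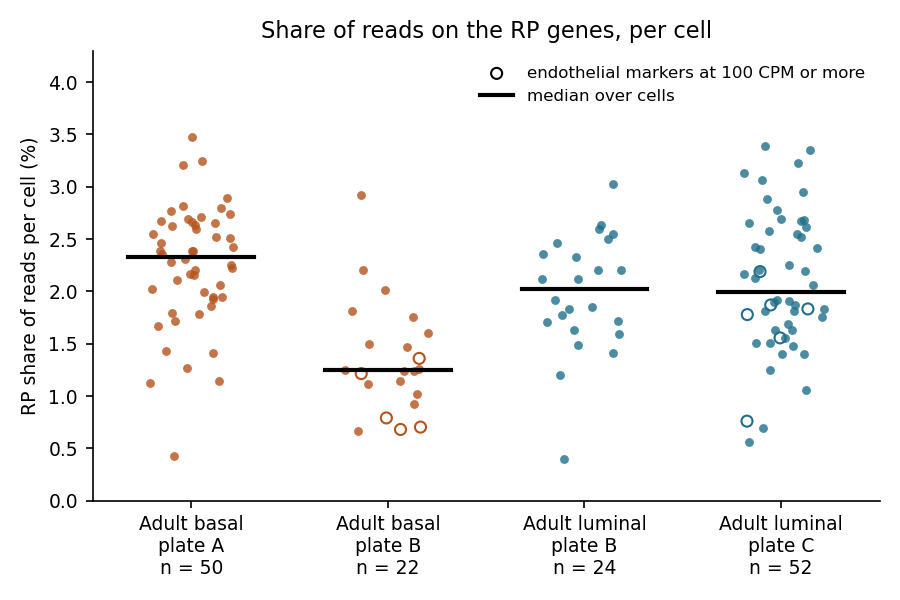
Share of reads on the 88 RP genes (y axis, percent of reads on genes with a symbol without mitochondrial genes) in each of 148 cells, by population and PCR plate (x axis). Points are cells, open circles are cells with endothelial markers at 100 CPM or more in sum and bars are medians. Basal cells of plate B have a median of 1.25%, and the other 3 groups have medians from 1.99 to 2.33%.

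Reads on the 43 large subunit genes were slightly more numerous in sum than those on the 31 small subunit genes in most cells. The sums cover unlike numbers of genes, so they do not compare levels per gene. The proteins of the small subunit had a median share of 0.767% in basal and 0.723% in luminal cells, and those of the large subunit 0.949% and 0.906%. The ratio of large to small subunit reads per cell had a median of 1.20 in basal cells (0.581 to 1.99) and 1.26 in luminal cells (0.495 to 6.28). On single plates it was 1.16 in basal cells of plate A, 1.27 in basal and 1.29 in luminal cells of plate B, and 1.25 in luminal cells of plate C. The largest value, 6.28, was that of luminal cell 86 on plate C, in which RP genes held only 0.695% of reads. The Spearman correlation between the shares of both subunits over cells was 0.859 in 50 basal cells of plate A, 0.683 in 22 of plate B, 0.655 in 24 luminal cells of plate B and 0.864 in 52 of plate C (cells of 1 plate share a preparation, and both shares have the same denominator).

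The 3 stalk genes encode the proteins through which translation factors are recruited to the ribosome, and all had higher summed CPM in luminal than in basal cells. Rplp0, the anchor of the stalk, ranged from 0.841 to 1671 CPM in basal cells (median 659) and from 31.2 to 1709 CPM in luminal cells (median 847). The luminal cells lay higher as a group, but the ranges overlapped over most of their length. Summed over cells Rplp0 reached 658 CPM (exact Poisson interval 653 to 663) among basal and 822 CPM (817 to 827) among luminal cells, a log2 ratio of 0.32. Rplp1 had 174 and 257 CPM, a log2 ratio of 0.56. Rplp2 had 90.0 and 104 CPM (log2 ratio 0.21), and here 14.3% of all luminal reads came from luminal cell 9, without which the log2 ratio was 0.01. On plate B alone the log2 ratios of Rplp0, Rplp1 and Rplp2 were 0.63, 1.08 and 0.67. For luminal cells of plate C over basal cells of plate A they were 0.20, 0.33 and -0.08, so the direction held in both pairings for Rplp0 and Rplp1 and not for Rplp2. With TMM factors they were 0.10, 0.33 and -0.01 over all plates.

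Between the populations few members were past a 2-fold difference. Log2 ratios of luminal over basal cells were taken from counts summed over cells, in CPM with 1 CPM added. Of 88 members 85 had at least 1 CPM in at least 3 cells and were compared. Rpl39l had 0 reads in passing cells, Rpl10l had 2 reads in each population, and Rpl3l had 1 basal and 213 luminal reads of which 99.1% came from luminal cell 44. A log2 ratio of 1 or more was found in 3 of the 85 (Rps13, Rpl27a and Rps6), while 28.3% of the 14730 genes compared were this high. A log2 ratio of -1 or less was found in 1 (Rpl12), beside 18.2% of all genes. The median log2 ratio of the members was 0.04 and that of all genes 0.18. The sign of the members' median turned with the scaling, to -0.16 with TMM factors and -0.18 with median-of-ratios factors, which moved the median of all genes by -0.15 and -0.17. Among genes with at least 100 CPM in both populations, a group closer to the members in level, 7.17% were at or above 1 and 7.93% at or below -1.

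For 3 of these members a single cell held much of the reads. Rps13, a small subunit protein, ranged from 0 to 111 CPM in basal cells (median 5.11) and from 0 to 2976 CPM in luminal cells (median 8.18). Almost all luminal cells lay in the basal range, and luminal cell 89 alone held 70.8% of the luminal Rps13 reads. Its summed levels were 8.28 CPM (7.68 to 8.91) and 81.3 CPM (79.6 to 82.9), a log2 ratio of 3.15 that was 1.44 without cell 89. Rpl27a, a large subunit protein, ranged from 0 to 369 CPM in basal cells (median 22.3) and from 0 to 5649 CPM in luminal cells (median 33.8). Here the maximum was luminal cell 13, with 30.6% of the luminal reads, and the log2 ratio of 1.26 was 0.75 without it. Rpl12, a large subunit protein at the base of the stalk, ranged from 0 to 2856 CPM in basal cells (median 11.1) and from 0 to 53.6 CPM in luminal cells (median 9.72). Basal cell 47 held 43.0% of the basal reads, and the log2 ratio of -1.34 was -0.57 without it.

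Rps6 was the member whose difference was spread over most cells. It encodes the small subunit protein phosphorylated by the S6 kinases downstream of mTOR. Of the 100-base stretches of its transcript, 83.6% also occur in pseudogenes elsewhere, none of which is among the genes counted. How read pairs that fit more than 1 place were treated is not given, so its levels and ratios hold with that limit. Basal cells ranged from 0 to 557 CPM (median 67.6) and luminal cells from 0 to 1050 CPM (median 123). The luminal cells were higher as a group and the ranges overlapped. Summed levels were 103 CPM (100 to 105) and 212 CPM (210 to 215), a log2 ratio of 1.04 for all plates together, 2.48 within plate B and 0.63 for luminal plate C over basal plate A. By plate Rps6 had 134 CPM in basal cells of plate A, 38.3 CPM in those of plate B, and 219 and 209 CPM for luminal cells on B and C, so the basal cells of plate B widened the difference. Without the single cell with most weight the log2 ratio was 0.92, under the 2-fold limit, and with TMM factors it was 0.82. Without all cells named above for markers of another cell type it was 0.89, and that of Rpl27a was 0.93.

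On plate B alone more members had a log2 ratio of 1 or more, and so did more of all genes. There 22 of the 85 members had a log2 ratio of 1 or more and 0 had -1 or less, beside 41.5% and 17.3% of all genes (23.4% and 14.7% of those at 100 CPM or more), and 77 of the 85 were above 0, as were 9337 of the 14730 genes and 829 of the 1451 at 100 CPM or more. The median of the members was 0.67 and that of all genes 0.51. Luminal cells of plate C over basal cells of plate A gave 1 member at 1 or more (Rps13) and 2 at -1 or less (Rpl12 and Rpl9), beside 27.4% and 20% of all genes (9.72% and 8.68% at 100 CPM or more), with medians of -0.18 for the members and 0.09 for all genes. Rpl9, at -1.02 here, was at -0.01 over all plates and at 0.56 there without basal cell 21. The members' median thus had opposite signs in the pairings of plates.

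Within a population, basal cells of plate B over plate A had 0 members at 1 or more and 26 at -1 or less, beside 13.7% and 41.7% of all genes (13.1% and 23.2% at 100 CPM or more). The median of the members was -0.70 and that of all genes -0.58. The lowest ratios were those of Rpl34 (-2.05), Rpl30 (-1.91), Rpl23a (-1.88) and Rps6 (-1.79). Below 0 were 76 of the 85 members, 9998 of all 14730 genes and 845 of the 1451 at 100 CPM or more. Of the 26, 5 were paralogs or RP-like genes. Rps27l, a p53-inducible paralog of Rps27, had a median over cells of 111 CPM on plate A (0 to 565) and of 1.20 CPM on plate B (0 to 268). Most cells of plate B held almost none of it, although the ranges overlapped, and the log2 ratio of summed levels was -1.63. Rpsa, which encodes a small subunit protein also known as a laminin receptor, had medians over cells of 748 CPM on plate A and 163 CPM on plate B, a log2 ratio of summed levels of -1.31. Luminal cells of plate C over plate B gave 0 members at 1 or more and 5 at -1 or less (Rpl27, Rpl27a, Rpl9, Rps2 and Rps27), beside 24.4% and 15.3% of all genes (5.79% and 4.48% at 100 CPM or more), with medians of -0.07 and 0.10. The comparisons share cells, so these counts are not independent of each other.

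**Figure D2:**
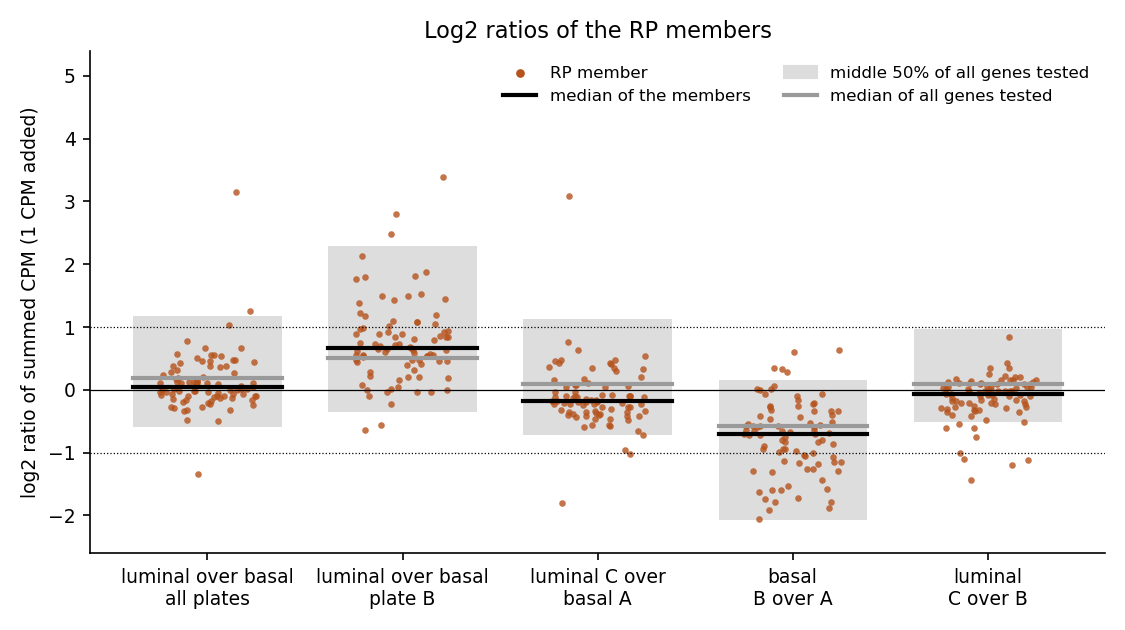
Log2 ratio of summed CPM (y axis, 1 CPM added) of the 85 RP members compared, in 5 contrasts of population and plate (x axis). Points are members, black bars their median, grey boxes the middle 50% of all 14730 genes and grey bars their median, with dotted lines at 1 and -1. The members' median lies at 0.04 over all plates, 0.67 on plate B and -0.70 for basal plate B over plate A.

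Within the RP genes, levels spanned over 3 orders of magnitude although the proteins are needed in equal numbers. Levels between genes are compared as RPKM, reads per kilobase of annotated exon per 1000000 reads. Rpl41, which encodes the smallest ribosomal protein, was the highest in both populations, at 2778 RPKM in basal and 2995 RPKM in luminal cells. Its cells ranged from 1.68 to 2988 CPM in basal (median 1206) and from 9.23 to 3142 CPM in luminal cells (median 1400). The retrocopy Rps27rt was the next, at 2266 and 1870 RPKM. Among the highest were also Rpl8 (1281 and 1373 RPKM), Rpl7 (1331 and 1053 RPKM) and the RP-like gene Rpl37rt (1240 and 1173 RPKM). The 10 members with most reads held 50.0% of all RP reads in basal and 48.3% in luminal cells.

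The members found in the fewest cells, paralogs and RP-like genes aside, were Rpl39, Rpl13, Rpl29, Rpl38 and Rpl30, all large subunit genes. Rpl39, whose product lines the exit tunnel, had 3.01 RPKM in basal and 2.96 RPKM in luminal cells and was found in 4.17% and 2.63% of cells at 50000 reads. Rpl13 had 2.28 and 4.81 RPKM and was found in 8.33% and 15.8% of cells. Sequence copies of Rpl13 elsewhere in the genome had 36.0 and 64.7 CPM, against 1.78 and 3.75 CPM for the gene. Copies had 190 and 202 CPM against 5.23 and 4.81 CPM for Rpl29, and 175 and 152 CPM against 15.2 and 15.0 CPM for Rpl30. The low level and detection of Rpl13, Rpl29 and Rpl30 thus hold only with the limit given for copies below. The order of levels was shared by the populations, with a Spearman correlation of 0.962 over 77 members without the paralogs and RP-like genes (genes are not independent replicates). It was 0.959 between the basal plates, 0.980 between the luminal plates and 0.944 between the populations on plate B.

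**Figure D3:**
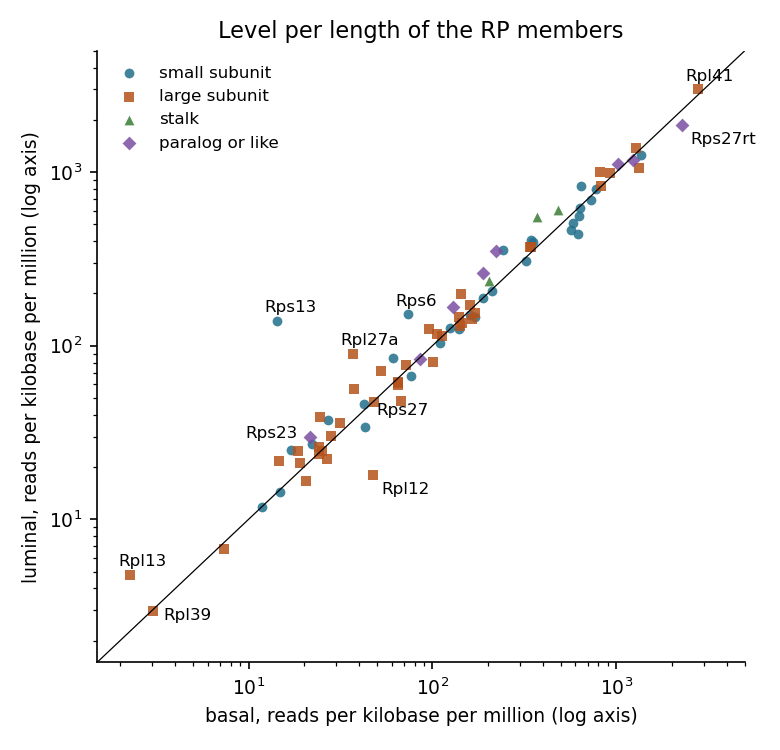
Level per length of the RP members in Adult basal (x axis) and Adult luminal (y axis) cells, as RPKM on log axes, for members above 0.5 RPKM in both. Symbols mark the subunit and the line marks equal levels. Most members lie close to the line over 3 orders of magnitude, with Rpl41 at 2778 and 2995 RPKM and Rps13, Rpl27a, Rps6 and Rpl12 away from it.

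Members whose sequence is repeated elsewhere in the genome had lower levels. For 85 members with a protein-coding GENCODE M21 transcript, each 100-base window was looked for, letter for letter on both strands, in the transcripts of genes at other places. Only 9 members shared no window, 27 shared at least 50% of their windows, and the median was 31.1%. Among the 77 members without the paralogs and RP-like genes, the 12 sharing under 10% had a median of 635 RPKM in basal and 679 RPKM in luminal cells. The medians were 172 and 146 RPKM for the 21 members sharing 10 to 30%, 125 and 114 RPKM for 28 sharing 30 to 60%, and 45.1 and 59.1 RPKM for 16 sharing 60% or more. The Spearman correlation between shared windows and RPKM over the 77 members was -0.400 in basal and -0.351 in luminal cells. Exceptions were present in the least shared class, where Rpl39 shared 1.75% and had 3.01 RPKM.

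Reads on the copies were plentiful. A copy is here a pseudogene, or another gene with a Gm or RP symbol, that is listed in the files, lies elsewhere and shares at least 1 such window with a member. Copies were found for 46 members, and for 24 of these, in each population, the copies together had more CPM than the member. Rps27 shared 98.4% of its windows and was at 24.3 CPM (23.3 to 25.4) among basal and 26.5 CPM (25.6 to 27.5) among luminal cells, whereas Rps27rt, with the identical coding sequence printed above, had 847 CPM (841 to 854) and 699 CPM (694 to 704). Rps23, of the decoding centre, had 12.3 and 15.0 CPM, and its copy Gm5148 had 910 and 836 CPM. Rpl37 had 58.3 and 41.7 CPM, while Rpl37rt had 786 and 744 CPM. Rpl24 had 65.3 and 85.0 CPM and its copy Gm9385 had 726 and 752 CPM. Rpl23a had 10.5 and 13.8 CPM, and its 3 copies had 401 and 452 CPM in all. For Rpl7 the gene was the higher, with 1243 and 984 CPM against 997 and 751 CPM on its copy Gm12174. How read pairs that fit more than 1 place were treated is not given in the sources used here, so the level of such a member cannot be told apart from that of its copies.

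Counted together, the 77 copies that are no member had 46.3 reads per 100 RP reads in basal and 45.5 in luminal cells. By plate there were 47.2 and 43.5 for basal cells on A and B and 44.5 and 46.0 for luminal cells on B and C. Members and copies together had a median share of 2.98% in basal and 2.84% in luminal cells, with 3.39% and 1.70% for basal cells on A and B, so basal cells of plate B were the lowest in this count too.

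**Figure D4:**
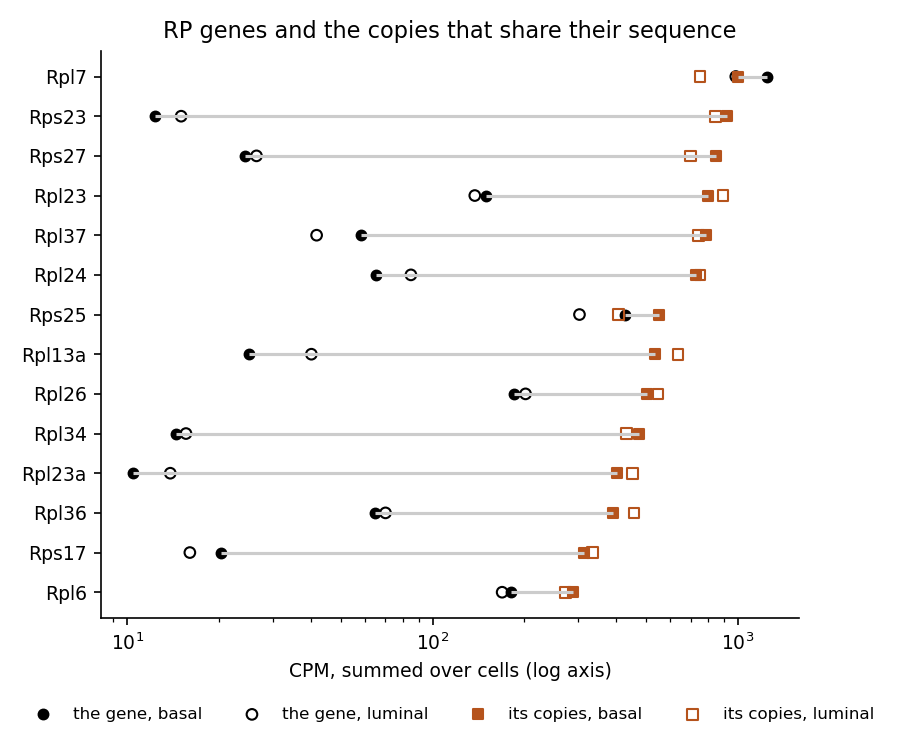
CPM summed over cells (x axis, log) of the 14 RP genes whose copies had at least 250 CPM in basal cells, one gene per line, with black circles for the gene and squares for its copies, filled for basal and open for luminal cells. For Rps23, Rps27, Rpl34 and Rpl23a the copies lie far to the right of the gene, while for Rpl7 and Rps25 they lie close together.

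At equal depth most members were found in most cells. With each cell thinned to 50000 reads, a basal cell had a median of 64 of the 88 members with at least 1 read (34 to 76) and a luminal cell 69.5 (25 to 76). The basal median was 68 on plate A (46 to 76) and 57 on plate B (34 to 64), and the luminal medians were 70 on plate B (51 to 75) and 69 on plate C (25 to 76). Basal cells of plate B were lower as a group, in the same direction as the number of other genes detected, and the ranges overlapped. At least 90% of cells held a read of 35 members in basal and 45 members in luminal cells. Every basal cell held Rpl14, Rps25 and Rps3a1, and every luminal cell held Rpl23, Rps27rt, Rps19 and Rplp0. At full depth the medians were 83 and 85 members. A cell with no read of a gene at 50000 reads can have had up to 3 reads' worth of it, so these shares limit reads found and not transcripts present.

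In the median, the RP genes with at least 100 CPM in both populations varied less between cells than all genes past that limit. The coefficient of variation (CV) over cells at 50000 reads was taken for the 1451 genes, 40 of them members, with at least 100 CPM in both populations. Its median was 0.671 for the members and 1.72 for all such genes in basal cells, and 0.580 and 1.41 in luminal cells. The median level was 372 CPM for the members and 222 CPM for all such genes in basal, and 311 and 229 CPM in luminal cells, so the members were somewhat higher, and CV falls with level. At 50000 reads, the members of this group were found in a median of 95.8% of basal and 96.7% of luminal cells, and all such genes in 62.5% and 73.7%. The highest single cell held a median of 4.28% of a member's reads in basal and 3.47% in luminal cells, and 12.6% and 10.4% over all such genes.

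The members with the smallest CV were Rpl41 (0.438 in basal and 0.377 in luminal cells), Rps3a1 (0.508 and 0.423), Rps19 (0.523 and 0.458), Rpl37rt (0.595 and 0.458) and Rplp0 (0.554 and 0.5). Rps19 is known for its mutations in Diamond-Blackfan anaemia. The largest were those of Rpl15 (3.76 and 1.45), Rpl10 (1.12 and 1.34), Rps6 (1.13 and 1.06), Rpl22 (0.870 and 1.09) and Rps15 (1.12 and 0.657). For Rpl15 a single basal cell, number 66, set the value, since 37.2% of the basal reads came from it, and its log2 ratio of luminal over basal was -0.32 with that cell and 0.33 without it. By plate the median CV was 0.573 in basal cells of plate A and 0.939 in those of plate B, and 0.564 and 0.590 for luminal cells on B and C, so the members were most unequal in basal cells of plate B. Over all 1451 genes the median CV was also higher there, at 2.04 against 1.43 in basal cells of plate A.

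**Figure D5:**
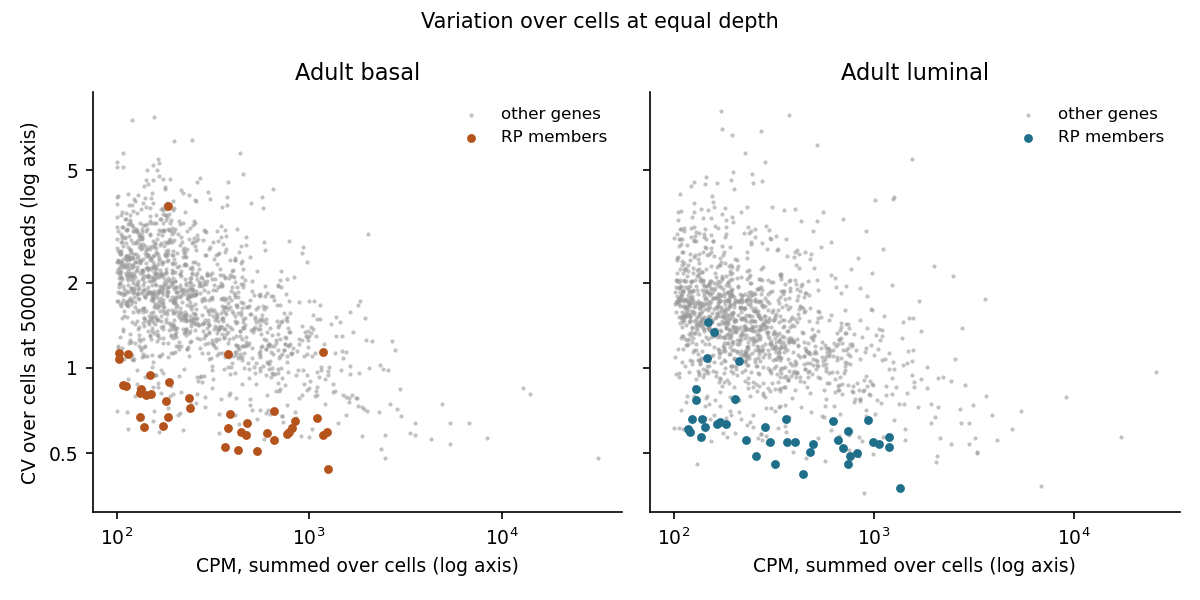
CV over cells (y axis, log) against CPM summed over cells (x axis, log) for the 1451 genes with at least 100 CPM in both populations, in Adult basal (left) and Adult luminal (right) cells, each cell thinned to 50000 reads. Coloured points are the 40 RP members, with median CVs of 0.671 and 0.580 against 1.72 and 1.41 for all genes shown, and the highest of them in basal cells is Rpl15 at 3.76.

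Members also went up and down together from cell to cell. Over pairs of the 35 members at 100 CPM or more that are no paralog, the median Spearman correlation over cells was 0.278 in basal cells of plate A (n = 50), 0.141 in those of plate B (n = 22), 0.392 in luminal cells of plate B (n = 24) and 0.428 in those of plate C (n = 52). Over pairs of the 1411 other genes at 100 CPM or more the medians were 0.082, 0.078, 0.097 and 0.135. As given above, genes past this limit had a lower median level than the members and were found in fewer cells. The pairs were not matched for level or detection. Cells of a plate share their preparation, and each value is a share of the same total. The members that followed the RP share of the other members most closely over 148 cells were Rpl32 (0.766), Rps19 (0.762) and the RP-like gene Rpl32l (0.758), and the lowest among members compared was Rpl13 (0.240).

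The genes outside the member list most like the RP share included 2 RP copies. Of 1404 genes at 100 CPM or more in both populations, those with the highest Spearman correlation with the RP share over 148 cells were Gm10335 (0.769), Gm8680 (0.750), Gm10132 (0.736), Mir682 (0.710) and Gm6252 (0.707). Gm10335 and Gm10132 each share 100-base windows with Rpl23a. In basal cells of plate B the correlations of these were only 0.189 and 0.068, and in luminal cells of plate C they were 0.771 and 0.802. The next known partners of the ribosome were Rack1, a scaffold protein bound to the small subunit (rank 15, 0.559), the elongation factor genes Eef1g (rank 16, 0.534) and Eef1a1 (rank 18, 0.513), and Btf3 and Naca (ranks 21 and 22), which encode the complex that meets the nascent chain at the tunnel exit.

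Paralog pairs differed in which gene was the higher. Rps27l had 222 RPKM in basal and 353 RPKM in luminal cells against 42.3 and 46.1 RPKM for Rps27, whose level cannot be told apart from that of its identical copy Rps27rt, at 2266 and 1870 RPKM. Rpl36al had 188 and 261 RPKM against 28.1 and 30.3 RPKM for Rpl36a, which shared 83.6% of its windows with other genes. Rpl22, at 100 CPM or more in both populations, had more reads than Rpl22l1, at 61.6 and 80.0 CPM, whose copy Gm15421 had 158 and 178 CPM. Per length Rpl22l1 was the higher, with 129 and 168 RPKM against 52.7 and 71.6 RPKM for Rpl22. In the other direction, Rpl7 had 1331 and 1053 RPKM against 21.6 and 29.9 RPKM for Rpl7l1, and Rpl3 had 65.0 and 62.2 RPKM while the muscle paralog Rpl3l was almost confined to luminal cell 44. Rpl10 had 144 and 198 RPKM, and its testis paralog Rpl10l had 2 reads in each population. Rpl39 had 102 and 136 reads, and Rpl39l had 0, which allows up to 0.035 CPM among basal and 0.026 CPM among luminal cells (3 reads over the group). Rps4x had 186 and 182 CPM, and Rps4l, which RefSeq lists as a transcribed pseudogene, had 8.55 and 0.634 CPM. The log2 ratios of Rps27l and Rpl36al, luminal to basal, were 0.66 and 0.47 for all plates together, 1.82 and 1.80 within plate B, and 0.35 and 0.05 for luminal plate C over basal plate A.

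The wider translation machinery was compared through lists of its genes. Of 21 partners of the ribosome with known TOP mRNAs, 1 had a log2 ratio of 1 or more in luminal over basal cells (Eif3h, 1.06) and 0 had -1 or less, beside 28.3% and 18.2% of all genes (7.17% and 7.93% at 100 CPM or more), with a median of 0.03. Eef1a1, which delivers aminoacyl-tRNA, was at 4276 CPM among basal and 6801 CPM among luminal cells (log2 ratio 0.67, 0.81 on plate B). Eef2, the translocase, had 233 and 417 CPM, with log2 ratios of 0.83 for all plates together and -0.35 within plate B. Rack1 had 1103 and 1255 CPM (0.19), Npm1, a nucleolar chaperone, 735 and 786 CPM (0.10), Pabpc1, the poly(A)-binding protein, 644 and 446 CPM (-0.53) and Tpt1 91.8 and 76.9 CPM (-0.25). Fau, which encodes a ribosomal protein fused to a ubiquitin-like protein, had 65.8 and 48.9 CPM (-0.42). The summed level of the list followed the RP share over cells, with Spearman correlations of 0.593 and 0.658 for basal cells on A and B and 0.593 and 0.838 for luminal cells on B and C.

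Ribosome biogenesis genes had a lower median than the RP genes over all plates. Of 20 such genes, which act in rRNA transcription, processing and subunit assembly, 2 had a log2 ratio of 1 or more in luminal over basal cells (Bop1, 1.44, and Nop2, 1.41) and 9 had -1 or less, beside 28.3% and 18.2% of all genes, with a median of -0.81. Nop58 had a log2 ratio of -1.84 (-1.47 without basal cell 92) and Wdr43 of -1.82 (-1.16 without basal cell 69). Without a single basal cell each, Tsr1 went from -2.49 to -0.85, Fbl from -1.24 to -0.81, Polr1a from -1.28 to -0.85 and Ubtf from -1.12 to -0.54, so 4 of the 9 were no longer past 2-fold. On plate B alone 8 were at 1 or more and 9 at -1 or less, beside 41.5% and 17.3% of all genes, with a median of -0.05. For luminal plate C over basal plate A, 3 were at 1 or more and 11 at -1 or less. There 27.4% and 20% of all genes were past these limits, and the median of the list was -1.10. The sum of the list had Spearman correlations with the RP share of 0.004 and 0.318 for basal cells on A and B and 0.141 and 0.159 for luminal cells on B and C. Of 78 mitochondrial ribosomal protein genes, 17 had a log2 ratio of 1 or more and 5 had -1 or less, beside 28.3% and 18.2% of all genes, with a median of 0.23 against 0.18 for all genes, and their sum had correlations with the RP share of 0.253, 0.184, 0.486 and 0.330 in the same order.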

How the data were processed

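Each cell had a table of whole-number read counts per Entrez gene, deposited by the authors. Per the labels and the methods, read pairs were mapped to mm10 with Subread and counted with featureCounts over the RefSeq annotation built into Rsubread. The treatment of read pairs with several places is not given in the sources used here. The authors left ribosomal genes out of their own analysis, but the deposited counts hold them.

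Symbols came from RefSeq (GRCm38.p6). The 1904 identifiers without a symbol (1.94% of reads) and 15 mitochondrial genes were left out of totals. Cells had to reach 50000 reads and 1000 genes (basal) or 100000 reads and 1500 genes (luminal), counted without mitochondrial and RP genes and RP pseudogenes. Genes needed 1 CPM in 3 cells. Cells were thinned to 50000 reads without replacement for detection and CV. Intervals are 95%, exact binomial or Poisson, and cover counting error only, since reads carried no molecular identifiers. The steps were tested on simulated data. Python 3.11.15 with numpy 2.4.6, pandas 2.3.3 and scipy 1.17.1 were used, and edgeR 4.0.16 only for TMM factors.

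The members, lists and alternatives were chosen with earlier results of these data known. Named members are the 5 highest per length in each population, the stalk genes, those past 2-fold in the same direction on plate B with 100 CPM in the higher population, the 5 largest and smallest CVs, the 5 lowest detections, paralog pairs, 10 set translation genes and the 5 likest other genes. Rps13, Rpl12 and those named for copies, for plates or within lists were chosen after their values were seen. Values of some genes that the rule names are not reported here.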

Additional observations from a re-analysis of the deposited data

Results flagged for a closer look

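The results here come from data that the comparisons leave out. In the 38 cells below the thresholds RP genes also held reads. Their median share was 0.557% in 10 basal cells of plate A, 1.03% in 14 basal cells of plate B and 0.586% in 14 luminal cells of plate C, under the medians of passing cells of the same plates (2.33, 1.25 and 1.99%). The highest of these was luminal cell 76 at 13.7%, with 1548 RP reads of 11283, and 9.49% of its reads were on paralogs and RP-like genes. Reads were also present on 36 RP pseudogenes that were left out of the members. They amounted to 11.7 reads per 100 RP reads in basal and 11.9 in luminal cells. In single passing cells this number ranged from 1.20 in luminal cell 86 to 62.1 in luminal cell 74, both with an RP share under 1%, and the quartiles were 10.7 and 12.4 in basal and 11.1 and 12.7 in luminal cells.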

How the results depend on the processing

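No paired analysis was possible because a number found in both populations just names a cell, and nothing here was tested. Of 205 recomputed summary values 144 stayed within a set bound, 57 moved past it and 4 moved past it and changed sign. The bound came from the spread over cells for shares and detection, from counting error for log2 medians and from repeats of the random thinning for CVs. For counts of members past 2-fold it was a set ratio between the counts. These bounds do not cover differences between mice. Of 416 values for named genes 392 kept their side of 2-fold, 8 passed it, 13 lost it and 3 moved. The cause was not tested. Medians below are for basal and then luminal cells. On plate B alone the RP share was 1.25% in basal cells, luminal minus basal was 0.77 points, 57 members were found in basal cells, the median log2 ratio was 0.67, 22 and 0 members were past 2-fold up and down, and the CVs were 0.892 and 0.529, taken over genes at 100 CPM or more on that plate. Basal plate A against luminal plate C gave a basal share of 2.33%, 68 members, a log2 median of -0.18, 1 and 2 members past 2-fold and CVs of 0.580 and 0.591. The log2 median was -0.16 with TMM and -0.18 with median-of-ratios factors. With all 186 cells the basal share was 1.77% and the luminal CV 0.620. Equal thresholds gave a basal CV of 0.639, and thresholds with mitochondrial and RP genes kept a luminal CV of 0.595. Without paralogs and RP-like genes the shares were 1.79 and 1.75%, 57.5 and 62.5 members were found, and the CVs were 0.685 and 0.597. At 100000 reads 71.5 and 75 members were found with CVs of 0.626 and 0.556, at full depth 83 and 85 with 0.614 and 0.516, and with at least 5 reads 38 and 43. A prior of 10 CPM left 0 members at -1 or less. With no filter on low genes the CVs were 0.941 and 0.808, and within RP reads the basal CV was 0.640.

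5 alternatives were chosen after seeing the data. Without cells with endothelial markers the CVs were 0.657 and 0.591, and without these and cells with higher markers of the other population 0.657 and 0.595. Without cells high in fibroblast markers as well, 1 member was at 1 or more and the basal CV was 0.661. With RP pseudogenes counted the shares were 2.30 and 2.24%, 79 and 87 genes were found and 2 were at -1 or less. With sequence copies counted the shares were 2.98 and 2.84%, basal plate B minus A was -1.69 points, 105.5 and 115.5 genes were found, 6 and 2 were past 2-fold up and down, and the CVs were 0.678 and 0.569. Of all called genes 60.8% were higher in luminal cells, 54.2% with TMM and 53.4% with median-of-ratios factors. Effects of leaving out single cells are given beside some of the members they moved most.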
